A study of Mus musculus with 11 samples.

Results

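Protein kinase C (PKC) and protein kinase D (PKD) transcripts were followed through a murine model of melanoma progression. The set was fixed by gene name and held 8 genes, all of which had a row among the 14272 genes of the tables: *Prkca*, *Prkcd*, *Prkce*, *Prkch*, *Prkci*, *Prkcz*, *Prkd2* and *Prkd3*. Gene expression was measured by RNA sequencing of ribosome-depleted total RNA in 11 libraries. Melan-a, immortalized melanocytes that do not form tumors, was represented by 2 libraries (replicates 2 and 3) and was grown in serum-containing RPMI medium to which the phorbol ester PMA was added at 200 nM. The lines 4C (pre-malignant, mesenchymal-like), 4C11− (melanoma, non-metastatic, mesenchymal-like) and 4C11+ (melanoma, metastatic, epithelial) were obtained from melan-a by repeated loss of anchorage, were cultured in the same medium lacking PMA, and had 3 libraries each from separate cultures. Each line is a single cell line, so a difference between lines is a difference between these cultures, and what belongs to the line and what belongs to PMA cannot be told apart in any comparison with melan-a. The comparisons among 4C, 4C11− and 4C11+ do not carry this difference in medium. In such bulk samples, fewer expressing cells and less RNA in each cell cannot be told apart.

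PKC isoforms are serine and threonine kinases that relay signals from receptors which activate phospholipase C. Conventional isoforms (*Prkca*) need diacylglycerol and calcium, calcium-independent isoforms (*Prkcd*, *Prkce*, *Prkch*) need diacylglycerol alone, and atypical isoforms (*Prkci*, *Prkcz*) respond to neither and act with the Par polarity proteins. PKD kinases (*Prkd2*, *Prkd3*) also bind diacylglycerol and are activated by the calcium-independent PKC isoforms. PMA takes the place of diacylglycerol on both of these PKC classes and on PKD. It is added to cultures of mouse melanocytes to let them grow, and long exposure lowers the protein of several PKC isoforms, which was not measured here.

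Values are log2 CPM as deposited, where CPM is the read count of a gene scaled to a fixed library size. Depth, estimated from the steps that single reads leave among low values, was 3.50 and 5.82 Mreads (megareads) for melan-a. The range was 5.67 to 7.08 for 4C libraries, 4.58 to 7.42 for 4C11− and 4.07 to 5.47 for 4C11+. Replicate 1 of 4C11− stood apart from the other two 4C11− libraries (Pearson r over all genes 0.924 and 0.888, against 0.971 between the others), and the 2 melan-a libraries correlated at 0.907. Of the 11 melanocyte markers with a row, none was at 3 reads or fewer throughout melan-a or 4C11+, while 3 were so in 4C (*Tyr*, *Oca2*, *Sox10*) and 3 in 4C11− (*Tyr*, *Oca2*, *Kit*). In melan-a, *Tyr* (mean 0.52) was above 3 reads in only 1 of 2 libraries and *Pmel* was at 2.68, against 8.52 and 11.9 in 4C11+. *Kit* went the other way (6.55 in melan-a, 3.03 in 4C11+), and the other markers were not called between these 2 lines. The summed level of the 11 markers was 5153 to 11489 CPM in melan-a and 15161 to 19101 in 4C11+, but only 411 to 1388 for 4C and 102 to 530 for 4C11−. In 4C and 4C11− nearly all of the sum was *Gpnmb*, with mean log2 CPM of 9.40 and 7.82. The next highest marker mean in these lines was 1.36, for *Pmel* in 4C11−. The 4 fibroblast markers with a row summed to 1968 to 2630 CPM in 4C and 4C11−, to 25.8 to 45.0 in 4C11+, and to 19.8 and 206 in the 2 melan-a libraries. *Col3a1* was at 3 reads or fewer in every library of melan-a and 4C11+. The melan-a libraries were apart in *Pdgfrb* (0.89 and 6.90 log2 CPM) and *Pdgfra* (3.91 and 6.38). Keratinocyte and leukocyte markers had rows for 1 and 3 of 8 genes, with sums of at most 2.80 and 96.8 CPM in any library. Tests used limma over all genes with Benjamini-Hochberg adjustment, and a difference was called at an adjusted p under 0.05.

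The members fell into 3 patterns. The line means of *Prkcd*, *Prkca*, *Prkd3*, *Prkci* and *Prkd2* were lowest in the metastatic line 4C11+, *Prkch* was high in the mesenchymal-like lines 4C and 4C11− and near absent in the other two, and *Prkcz* was lowest in the mesenchymal-like lines. Of the members lowest in 4C11+, only *Prkcd* was called lower there than in melan-a, and *Prkd2* was close to melan-a (-0.16, limma adjusted p = 0.833). *Prkce* had no called difference, and no member was called between 4C and 4C11−, where 1.67% of all genes were called (1.26% higher, 0.406% lower). The plot of the members by library shows each value. Where libraries of some lines lay apart from the others without overlap, the share of all genes that did the same was not counted.

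**Figure D1:**
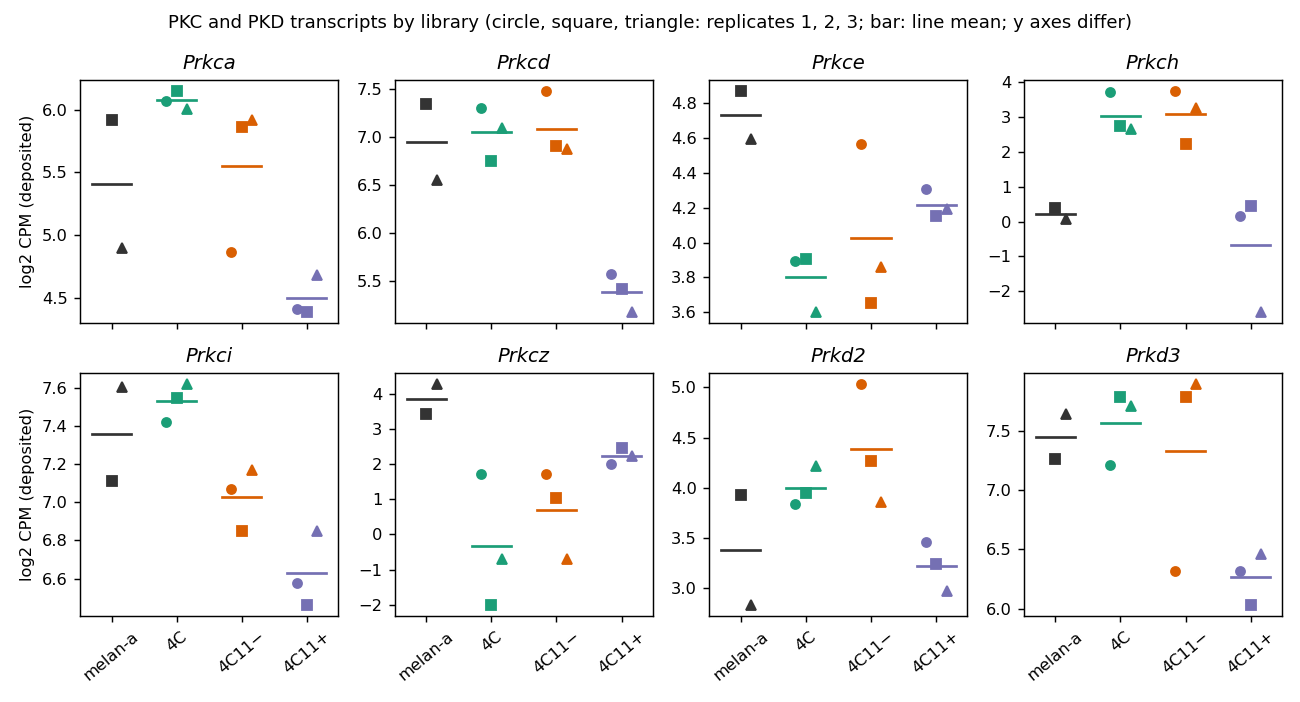
Deposited log2 CPM (y axis, scaled separately in each panel) of the 8 PKC and PKD genes in the 11 libraries, grouped by line on the x axis, with symbols for replicates 1 to 3 and a bar at the line mean. *Prkcd* in 4C11+ (5.18 to 5.57) lies below every other library, *Prkch* reaches 2.22 or more only in 4C and 4C11−, and replicate 1 of 4C11− departs from replicates 2 and 3 for *Prkca*, *Prkce* and *Prkd3*.

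*Prkcd* encodes PKC delta, a calcium-independent isoform with roles in apoptosis and differentiation. Its log2 CPM in the melan-a libraries was 7.34 and 6.55, while 4C libraries had 7.30, 6.75 and 7.09, 4C11− libraries 7.48, 6.90 and 6.87 and 4C11+ libraries 5.57, 5.41 and 5.18. All 3 libraries of 4C11+ were below all 8 others, and the first 3 lines overlapped. In 4C11+ it was 3.15-fold lower than in 4C (log2 difference -1.66, standard error 0.27, limma adjusted p = 0.000689) and 3.24-fold lower than in 4C11− (-1.70, standard error 0.27, adjusted p = 0.000621). Against melan-a it was 2.95-fold lower (-1.56, standard error 0.30, adjusted p = 0.0057), a call that was lost without melan-a replicate 2 (adjusted p = 0.0611). The differences of 4C and 4C11− from melan-a were 0.10 and 0.14, with 95% intervals of -0.56 to 0.76 and -0.52 to 0.80.

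*Prkca*, the conventional isoform with a row among the members, is a broadly expressed kinase of proliferation and migration. It stood at 5.92 and 4.90 in the melan-a libraries, while 4C libraries had 6.07, 6.15 and 6.01, 4C11− libraries 4.87, 5.86 and 5.92 and 4C11+ libraries 4.41, 4.39 and 4.68. Again 4C11+ held the 3 lowest values, with melan-a replicate 3 and 4C11− replicate 1 next above them. *Prkca* was 2.99-fold lower in 4C11+ than in 4C (-1.58, standard error 0.33, limma adjusted p = 0.00367) and 2.07-fold lower than in 4C11− (-1.05, standard error 0.33, adjusted p = 0.0318). The call against 4C11− was lost when 4C11− replicate 2 or 3 or 4C11+ replicate 1 or 2 was left out, with an adjusted p of up to 0.118. Its difference between 4C11+ and melan-a (-0.91, adjusted p = 0.121) was not called, but was without 4C11− replicate 1 (adjusted p = 0.0485) or melan-a replicate 3 (adjusted p = 0.0355). Exons of *Prkca* overlap *Apoh* on the opposite strand, and whether counting used strand is not given in the sources used here.

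*Prkd3* encodes a PKD isoform of the trans-Golgi network and secretion. Melan-a libraries gave 7.26 and 7.64, while 4C libraries had 7.21, 7.78 and 7.71, 4C11− libraries 6.32, 7.78 and 7.89 and 4C11+ libraries 6.32, 6.03 and 6.46. Replicate 1 of 4C11− lay within the range of 4C11+, replicate 2 was level with the highest library of 4C, and replicate 3 was above it. The gene was 2.46-fold lower in 4C11+ than in 4C (-1.30, standard error 0.37, limma adjusted p = 0.0194) and 2.09-fold lower than in 4C11− (-1.06, standard error 0.37, adjusted p = 0.0474). The latter call was lost in 11 of 18 alternative fits (adjusted p of up to 0.169), and that against 4C without 4C replicate 2 or 3 or 4C11+ replicate 1 or 2 (up to 0.0763). Against melan-a the difference of -1.18 (adjusted p = 0.0753) was called only without 4C11− replicate 1, the library that stood apart (adjusted p = 0.00695).

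*Prkd2*, the other PKD isoform, stood at 3.93 and 2.83 in the melan-a libraries, while 4C libraries had 3.83, 3.95 and 4.22, 4C11− libraries 5.03, 4.27 and 3.86 and 4C11+ libraries 3.46, 3.24 and 2.97. The libraries of 4C11+ were below those of 4C and 4C11− without overlap and inside the range of melan-a. Of the comparisons between pairs of lines, it was called lower in 4C11+ than in 4C11− (-1.16, standard error 0.38, limma adjusted p = 0.0368), and this call was lost without 4C replicate 2, 4C11− replicate 1 or 2, or any 4C11+ library (adjusted p of up to 0.104).

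*Prkch* encodes PKC eta, a calcium-independent isoform best known from stratified epithelia. It stood at 0.40 and 0.06 in the melan-a libraries, while 4C libraries had 3.72, 2.75 and 2.67, 4C11− libraries 3.76, 2.22 and 3.26 and 4C11+ libraries 0.15, 0.44 and -2.58. These values stand for 5 and 5 reads in the melan-a libraries, while 4C had 92, 47 and 36, 4C11− had 59, 35 and 61, and 4C11+ had 3, 4 and 0 reads, so the 6 mesenchymal-like libraries were above the 5 epithelial ones without overlap. In 4C11+ it was lower than in 4C (log2 difference -3.71, standard error 0.74, limma adjusted p = 0.00263) and lower than in 4C11− (-3.74, standard error 0.74, adjusted p = 0.00267). Without 4C11+ replicate 3, which had 0 reads, these differences were -2.75 and -2.78 and stayed called. From the reads alone (175 reads in 4C and 7 in 4C11+, scaled by depth) the level was 17.8-fold higher in 4C, with an exact 95% interval of 8.46 to 45.0 that covers counting error only.

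Against melan-a, *Prkch* was higher in 4C (2.82, standard error 0.83, limma adjusted p = 0.0401) and in 4C11− (2.85, standard error 0.83, adjusted p = 0.0413). The ratio of reads was 8.46 for 4C (interval 4.49 to 18.0) and 7.73 for 4C11− (interval 4.09 to 16.4), with 10 reads in both melan-a libraries together. Both limma calls stood close to the threshold. The first was lost without either melan-a library, any 4C library or 4C11− replicate 3 (adjusted p of up to 0.141), and the second without either melan-a library, any 4C library or 4C11− replicate 1 or 3 (up to 0.145). Both were also lost without the variance trend and with the replicate number as a block. Melan-a and 4C11+ were not distinguished (-0.90, 95% interval -2.71 to 0.92).

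*Prkcz* encodes PKC zeta, an atypical isoform of the Par complex. Its log2 CPM in the melan-a libraries was 3.41 and 4.27, while 4C libraries had 1.71, -2.01 and -0.70, 4C11− libraries 1.73, 1.04 and -0.70 and 4C11+ libraries 2.00, 2.45 and 2.23. Estimated reads were 20, 2 and 4 in 4C, 17, 15 and 6 in 4C11− and 15, 21 and 24 in 4C11+, with 37 in melan-a replicate 2. In the deposited values every epithelial library was above every mesenchymal-like library, and the 4C libraries spread widely (SD 1.89). Reads scaled by the estimated depth would not keep this separation. There were 17 reads at 4.58 Mreads in 4C11− replicate 1 and 15 at 4.19 Mreads in 4C11+ replicate 1. *Prkcz* was lower in 4C than in melan-a (-4.17, standard error 0.96, limma adjusted p = 0.0119), a call lost without melan-a replicate 3 (adjusted p = 0.0769). This difference was -5.20 without 4C replicate 1 and -3.34 without 4C replicate 2. For 4C11− against melan-a the difference was -3.16 (standard error 0.96), and its adjusted p of 0.05003 did not pass the threshold. It passed in 5 alternative fits, among them those with a pseudocount of 1 CPM (adjusted p = 0.00857), with the replicate block (adjusted p = 0.0237) and without 4C11− replicate 1 (adjusted p = 0.0315). *Prkcz* was higher in 4C11+ than in 4C (2.56, standard error 0.86, adjusted p = 0.0407), where the reads give a ratio of 3.24 (interval 2.01 to 5.35). That call was lost without 4C replicate 2 or 3, 4C11− replicate 2, any 4C11+ library or the variance trend (adjusted p of up to 0.167), and the difference was 3.58 without 4C replicate 1 and 1.72 without 4C replicate 2. The differences of 4C11+ from 4C11− (1.54, limma adjusted p = 0.199) and from melan-a (-1.62, adjusted p = 0.283) were not called.

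*Prkci* encodes PKC iota, the other atypical isoform, which is counted among the oncogenic PKCs. It stood at 7.11 and 7.61 in the melan-a libraries, while 4C libraries had 7.42, 7.55 and 7.62, 4C11− libraries 7.07, 6.85 and 7.17 and 4C11+ libraries 6.58, 6.46 and 6.85. Its line means ran from 7.53 in 4C through 7.36 and 7.03 to 6.63 in 4C11+, and no neighbours in this order differed at the threshold. Only the ends did, with *Prkci* 1.87-fold lower in 4C11+ than in 4C (-0.90, standard error 0.21, limma adjusted p = 0.00594). This call held in every alternative fit. Against melan-a the difference of -0.73 (adjusted p = 0.0512) passed without melan-a replicate 2, 4C11− replicate 1 or 4C11+ replicate 3 and with the filter on low means (adjusted p = 0.0402 to 0.0458).

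*Prkce*, a calcium-independent isoform that promotes growth in several cell types, stood at 4.87 and 4.59 in the melan-a libraries, while 4C libraries had 3.89, 3.91 and 3.60, 4C11− libraries 4.57, 3.66 and 3.86 and 4C11+ libraries 4.31, 4.15 and 4.20. Both melan-a libraries were above all libraries of the other lines, the nearest being 4C11− replicate 1 at 4.57. No comparison was called, the nearest being the mesenchymal-like against the epithelial lines (-0.56, standard error 0.22, limma adjusted p = 0.0723) and 4C against melan-a (-0.93, standard error 0.32, adjusted p = 0.077). Without 4C11− replicate 1 it was called lower in 4C (adjusted p = 0.0298) and in 4C11− (adjusted p = 0.0438) than in melan-a, as also in the derived lines together (adjusted p = 0.0346) and the mesenchymal-like lines (adjusted p = 0.0139). With the replicate number as a block it was also called lower in the mesenchymal-like lines (-0.62, adjusted p = 0.0476).

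Counted over the 8 members, 4C11+ against 4C had 5 lower (*Prkca*, *Prkcd*, *Prkch*, *Prkci*, *Prkd3*) and 1 higher (*Prkcz*), where 31.7% of all genes were called (14.6% lower, 17.1% higher). In 4C11+ against 4C11− there were 5 lower (*Prkca*, *Prkcd*, *Prkch*, *Prkd2*, *Prkd3*) and 0 higher, beside a background of 31.1% called (15.6% higher, 15.4% lower). The median difference of the members was -1.10 and -1.06 in these comparisons, beside 0.08 and 0.12 for all genes. The comparisons share the 4C11+ libraries. In 4C against melan-a, 1 member was higher and 1 lower, with 15.2% of all genes called (7.64% higher, 7.55% lower). In 4C11− against melan-a 1 member was higher and 0 lower, with 13.6% of all genes called (7.55% higher, 6.05% lower). In 4C11+ against melan-a 0 were higher and 1 lower, with 15.9% called (8.39% higher, 7.52% lower). The members' shares in these comparisons were near or below those of all genes, except in 4C, where 2 of 8 were called. Between 4C11− and 4C, limma called 0 members, and 1 member, *Prkci*, had an unadjusted p under 0.05 (difference -0.50, 95% interval -0.95 to -0.05, adjusted p = 0.302).

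**Figure D2:**
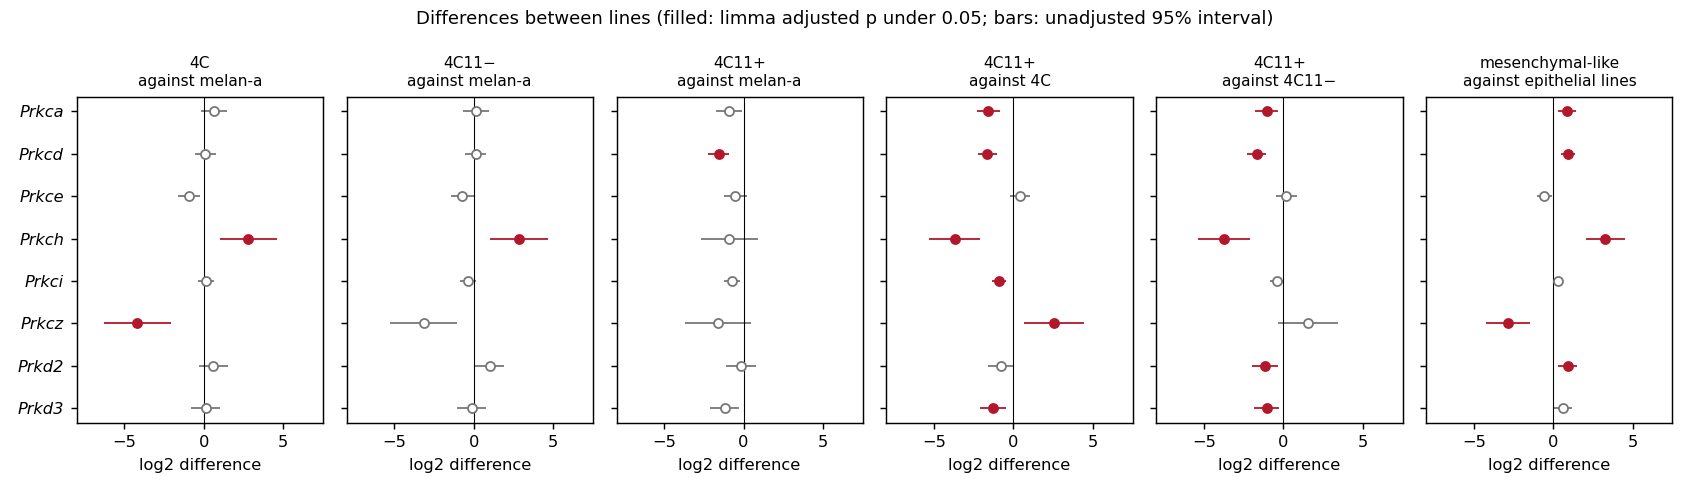
Log2 differences (x axis) of the 8 members in 6 comparisons with unadjusted 95% intervals from limma, filled where the adjusted p was under 0.05. In both comparisons of 4C11+ with a mesenchymal-like line 5 members lie filled on the lower side, while against melan-a the filled points are *Prkch* and *Prkcz* in 4C, *Prkch* in 4C11− and *Prkcd* in 4C11+.

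To set the line grown with PMA against all lines grown without it, the mean of the 3 derived lines was compared with melan-a. *Prkcz* was the 1 member called, lower in the derived lines (-2.98, standard error 0.82, limma adjusted p = 0.0348), where 12.3% of all genes were called (6.59% higher, 5.7% lower). Leaving out either melan-a library, 4C replicate 3, 4C11− replicate 2 or any 4C11+ library ended this call (adjusted p of up to 0.181). Line by line, *Prkcz* differed from melan-a by -4.17 in 4C, -3.16 in 4C11− and -1.62 in 4C11+, and of these only that in 4C was called. *Prkcz* is an isoform that PMA does not bind. Of the 6 members with a binding site for PMA, none was called: the differences were -0.03 for *Prkca* (95% interval -0.73 to 0.66), -0.44 for *Prkcd* (-1.01 to 0.12), -0.72 for *Prkce* (-1.32 to -0.11) and 1.59 for *Prkch* (0.04 to 3.14). The *Prkch* difference was called without 4C11+ replicate 3 (1.91, adjusted p = 0.0243) and with a pseudocount of 1 CPM (1.32, adjusted p = 0.0488). Differences were 0.49 for *Prkd2* (-0.31 to 1.28) and -0.39 for *Prkd3* (-1.17 to 0.38). With 12.3% of all genes called, none of 6 is near that share, and the part of PMA was not tested. *Prkcq*, a calcium-independent isoform that is not a member, was called lower in the derived lines (-5.33, standard error 0.56, limma adjusted p = 6.93e-05). By line, *Prkcq* was near absent in 4C and 4C11−, and its difference in 4C11+ was not called (1.87, adjusted p = 0.0766).

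Between the mesenchymal-like lines (4C, 4C11−) and the epithelial lines (melan-a, 4C11+), 4 members were higher and 1 lower, with 29.7% of all genes called (14.3% higher, 15.3% lower). The higher members were *Prkch* (3.28, standard error 0.56, limma adjusted p = 0.000855), *Prkcd* (0.90, standard error 0.20, adjusted p = 0.00573), *Prkd2* (0.89, standard error 0.28, adjusted p = 0.0345) and *Prkca* (0.86, standard error 0.25, adjusted p = 0.0217). *Prkcz* was lower (-2.86, standard error 0.64, adjusted p = 0.00563). The deposited values of *Prkch* and *Prkcz* did not overlap between the 6 mesenchymal-like and 5 epithelial libraries, and how many of all genes separate likewise was not counted. These differences and that of *Prkcd* were called in every alternative fit. For *Prkcd*, *Prkca* and *Prkd2* the melan-a libraries overlapped the mesenchymal-like ones. *Prkd3* (0.59, adjusted p = 0.136) was called higher without 4C11− replicate 1 (0.84, adjusted p = 0.00295) and with the replicate number as a block (0.70, adjusted p = 0.0435). The *Prkca* call was lost without melan-a replicate 3, 4C replicate 2, 4C11− replicate 2 or 4C11+ replicate 1 or 2 (adjusted p of up to 0.101), and the *Prkd2* call in 8 of the 11 fits with a library left out (up to 0.148). Melanocyte markers were lower and fibroblast markers higher in the same lines, by the sums given above, and their part in these differences was not tested.

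Divided by exon length, which allows genes to be compared, *Prkci*, *Prkcd* and *Prkd3* made up most of the summed level of the 8 members in every line. In melan-a, *Prkci* held 36.5% ± 9.42 (SD, n = 2) of the summed CPM per kb of the 8 members, *Prkcd* 27.9% ± 9.94 and *Prkd3* 19.4% ± 3.94. In 4C11+ the shares were 44.3% ± 3.49 (SD, n = 3), 18.9% ± 3.22 and 17.4% ± 1.34. *Prkca* held 6.04% to 8.45% in the line means, and *Prkce* ranged from 2.18% in 4C to 6.37% in 4C11+. *Prkch*, in spite of its large differences, held 1.32% and 1.55% in 4C and 4C11− and 0.190% and 0.299% in melan-a and 4C11+. *Prkcz* held 2.89% in melan-a and 1.86% in 4C11+, but 0.249% in 4C and 0.405% in 4C11−.

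The summed level of the 8 members was 40.4 ± 2.96 CPM per kb (SD, n = 3) in 4C11+, against 78.6 ± 3.18 (SD, n = 3) for 4C11−, 88.9 ± 3.02 (SD, n = 3) for 4C and 82.6 ± 1.70 (SD, n = 2) for melan-a. The 4C11+ libraries (37.2 to 43.0) lay below all others (75.3 to 92.4). This sum leaves out *Prkcq*, which encodes PKC theta, a calcium-independent isoform outside the member list that is best known from T cells. *Prkcq* had 4.61 and 6.84 log2 CPM in melan-a, 7.77, 7.54 and 7.46 in 4C11+, and between 0 and 1 reads in each of the 6 libraries of 4C and 4C11−. It was thus at least 6.98 log2 units lower in 4C and at least 7.29 lower in 4C11− than in melan-a (bounds at 3 reads in each library; adjusted p = 2.13e-06 and 3.73e-06 from limma). With *Prkcq* added, the sum rose to 67.7 ± 4.25 CPM per kb in 4C11+ and 92.3 ± 7.28 in melan-a, and *Prkcq* alone was 40.3% ± 3.30 (SD, n = 3) of it in 4C11+. *Prkcb* and *Prkd1* were not analysed here.

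**Figure D3:**
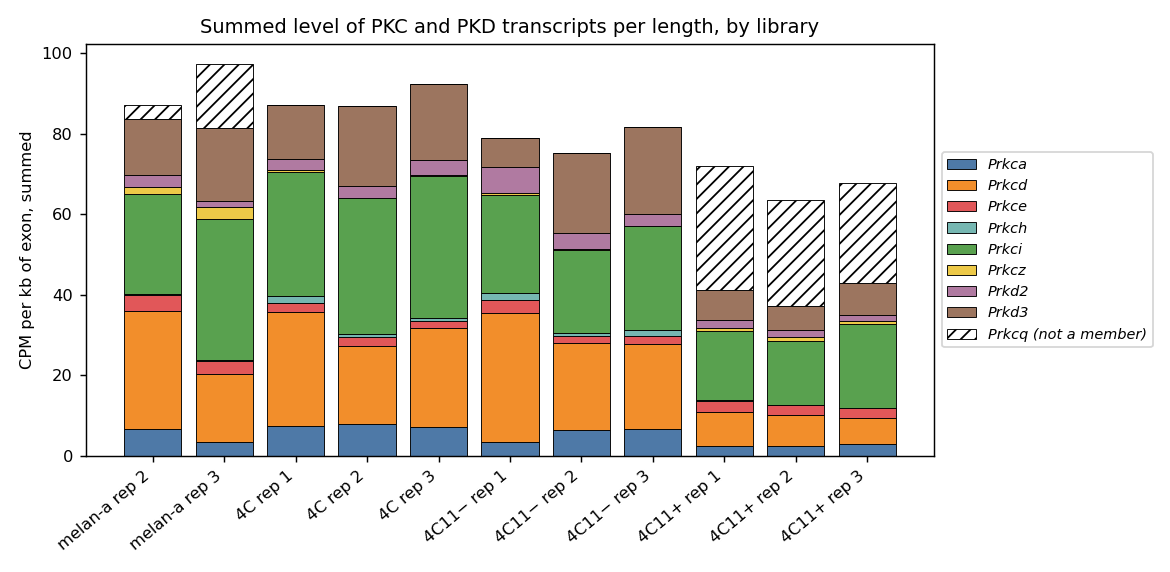
Summed CPM per kb of exon (y axis) of the 8 members in each library (x axis), with *Prkcq*, which is not a member, hatched on top. The members sum to 37.2 to 43.0 in 4C11+ and to 75.3 to 92.4 elsewhere, and *Prkcq* is visible only in melan-a and 4C11+.

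The members also differed in how they varied with each other over the 11 libraries, which is given without a test because libraries of 1 line share their line. *Prkca* and *Prkd3* had a Pearson r of 0.83, *Prkcd* and *Prkch* 0.78, *Prkch* and *Prkd2* 0.77, and *Prkce* and *Prkcz* 0.74. The pairs *Prkca* and *Prkcz* (-0.57) and *Prkch* and *Prkcz* (-0.56) were the most opposed. Among all named genes, *Prkcd* was most like *Gata4* (r = 0.986) and *Tox4* (0.982), which both lie with it on chromosome 14. *Prkca* was most like *Gm26584* (0.958) and *Cdk14* (0.941), *Prkch* most like *A530013C23Rik* (0.966) and *R3hcc1* (0.963), and *Prkcz* most like *Spry2* (0.956) and *Rpl12* (0.955). For *Prkd2* these genes were *Psmb1* (0.972) and *Ergic3* (0.968), for *Prkd3* *Nipbl* (0.971) and *Zfp976* (0.970), for *Prkce* *3830408C21Rik* (0.940) and *Plk2* (0.931), and for *Prkci* *Ccdc191* (0.921) and *Sema3c* (0.920).

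The members lie on 7 chromosomes of GRCm38, and their surroundings moved in different ways. *Prkcd* is at chr14:30595354-30626210 on the minus strand. Of the 466 other genes on chromosome 14, 122 (26.2%) were called lower and 32 higher in 4C11+ than in 4C, where 14.6% of all genes were lower and 17.1% higher, with a median of -0.45 against 0.08 for all genes, while *Prkcd* itself differed by -1.66. *Prkch*, at chr12:73584796-73778185 on the plus strand, went against its surroundings. Of the 513 other genes on chromosome 12, 181 were higher and 29 lower in 4C11+ than in 4C (median 0.80), and *Prkch* fell by 3.71. *Prkcz*, at chr4:155260129-155361361 on the minus strand, was higher in 4C11+ than in 4C by 2.56, with a median of 0.27 over the 875 other genes of chromosome 4. In 4C against melan-a, where *Prkcz* differed by -4.17, those genes had a median of -0.60, beside -0.06 for all genes. Of them, 149 (17.0%) were lower and 34 higher, where 7.55% of all genes were lower and 7.64% higher. For 4C11+ against 4C again, *Prkci* (chr3:30995747-31052959, plus strand) and *Prkd2* (chr7:16842902-16870464, plus strand) had medians of 0.10 and 0.24 over the other genes of their chromosomes. For *Prkca* at chr11:107933387-108343928 (minus strand) the median over 1136 genes was 0.16. *Prkce* (chr17:86167785-86657919, plus strand) and *Prkd3* (chr17:78949405-79020816, minus strand) share chromosome 17, with medians of -0.08 over its other genes. Medians over the genes within 5 Mb of each member differed in part from those of the chromosomes in this comparison. They were -0.44 for *Prkci*, -0.55 for *Prkce*, -0.35 for *Prkd3* and -0.40 for *Prkcd*. For *Prkd2*, *Prkca*, *Prkch* and *Prkcz* they were 0.34, 0.17, 0.79 and 0.16. Near *Prkce*, 13 of 32 genes were lower and 2 higher, while *Prkce* differed by 0.42.

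Promoter windows, the 250 bases before the annotated start, are shown for *Prkcz* and *Prkcd*, the members with the largest fall in 4C and the most marked fall in 4C11+ that have one (RefSeq, GRCm38.p6, minus strand, 5′ to 3′). *Prkch* has no entry in the table. Capitals mark 2 E-boxes, hexamers bound by basic helix-loop-helix factors. One is the palindrome CACGTG. The other, also bound by the Snail and Zeb repressors, is CAGGTG, which reads CACCTG on the opposite strand. The motifs were chosen after the values were known.
Prkcz, start 1, chr4:155361429-155361678: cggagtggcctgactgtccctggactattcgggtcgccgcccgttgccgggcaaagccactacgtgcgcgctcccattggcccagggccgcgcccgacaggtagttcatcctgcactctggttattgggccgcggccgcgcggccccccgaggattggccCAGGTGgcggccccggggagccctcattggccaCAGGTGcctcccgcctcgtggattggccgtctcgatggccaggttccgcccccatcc
Prkcz, start 3, chr4:155344750-155344999: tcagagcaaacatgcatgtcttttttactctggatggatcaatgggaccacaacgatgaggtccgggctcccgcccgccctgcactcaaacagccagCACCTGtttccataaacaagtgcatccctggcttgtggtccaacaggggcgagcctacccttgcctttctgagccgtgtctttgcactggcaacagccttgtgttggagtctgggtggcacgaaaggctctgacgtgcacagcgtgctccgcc
Prkcd, start 1, chr14:30626209-30626458: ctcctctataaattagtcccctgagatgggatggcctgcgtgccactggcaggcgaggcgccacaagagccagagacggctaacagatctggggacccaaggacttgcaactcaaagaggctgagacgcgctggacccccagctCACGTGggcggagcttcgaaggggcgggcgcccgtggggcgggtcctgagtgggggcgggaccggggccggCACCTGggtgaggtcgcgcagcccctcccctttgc

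The *Prkcz* window of start 1, 70.8% G and C, holds CAGGTG at 2 places and that of start 3 (56.8%) at 1 place, and the *Prkcd* window of start 1 (67.6%) holds each E-box once. *Prkcz* start 2 and *Prkcd* start 2 have windows with neither E-box, as have all windows of *Prkca*, *Prkci*, *Prkd2* and *Prkd3*, so those shown were picked for holding one. CAGGTG is found in 17.2% of all 32851 windows of this length, at 2 or more places in 2.06%, and CACGTG in 6.02%. The phorbol ester response element TGANTCA, bound by AP-1, and CATGTG, the M-box of Mitf, were searched on both strands too. Neither occurs in the windows of *Prkca*, *Prkcd*, *Prkci*, *Prkcz*, *Prkd2* or *Prkd3*, and 6.75% and 12.3% of all windows hold them. A match is a run of letters and was not tested as a binding site. The bases just after *Prkcz* starts 1 and 2 were not found in the transcripts of this gene in the GENCODE annotation.

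Genes that supply or remove diacylglycerol, the lipid that activates most members, were counted next. Of the 12 phospholipase C genes listed 7 had a row. In the derived lines 0 were higher and 2 lower than in melan-a, and in the mesenchymal-like lines 2 were higher and 3 lower than in the epithelial lines. Of all genes, 12.3% were called in the former comparison (6.59% higher, 5.7% lower) and 29.7% in the latter (14.3% higher, 15.3% lower). *Plcb4*, which acts downstream of Gq-coupled receptors, was lower in the mesenchymal-like lines (-4.89, standard error 0.55, limma adjusted p = 3.79e-05), and these differed from each other, with means of -1.35 in 4C and 2.59 in 4C11− (adjusted p = 0.0207). *Plcg2* and *Plch1* had 3 reads or fewer in every library of 4C and 4C11− and were at least 6.04 and 4.43 log2 units higher in 4C11+ than in 4C. *Plcg1*, the form joined to receptor tyrosine kinases, was higher in the mesenchymal-like lines by 1.38 (standard error 0.16, adjusted p = 5.76e-05). Of 7 diacylglycerol kinases with a row, *Dgki* was likewise at 3 reads or fewer throughout 4C and 4C11−, and *Dgkh* was higher in the mesenchymal-like lines by 0.75 (adjusted p = 0.0395). *Dgka* differed by 0.71 (adjusted p = 0.188).

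Phorbol esters also bind proteins other than PKC, and 6 of 10 such genes had a row. *Rasgrp3*, an exchange factor for Ras, was lower in the mesenchymal-like lines (-5.66, standard error 0.53, limma adjusted p = 7.8e-06). *Chn2*, a Rac-directed chimaerin, was at 3 reads or fewer in 4C and 4C11− and at least 6.22 log2 units higher in 4C11+ than in 4C. *Chn1* was higher in the derived lines than in melan-a by 4.38 (standard error 0.61, adjusted p = 0.00054). By line it was called in 4C11− (5.30) and 4C11+ (5.92) but not in 4C (1.94, limma adjusted p = 0.0939). Only 1 of the 2 melan-a libraries had more than 3 reads of it. *Rasgrp2* was at 3 reads or fewer in melan-a and at least 4.47 log2 units higher in 4C11+, and *Unc13d* was higher in the mesenchymal-like lines by 1.86 (adjusted p = 0.00887). Compared with 4C, 4C11+ had 4 of these 6 genes higher and 1 lower, where 17.1% of all genes were higher and 14.6% lower.

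Of 14 PKC binding partners, 3 were higher and 2 lower in the mesenchymal-like lines, where 14.3% of all genes were higher and 15.3% lower, so that the count is near that of all genes. *Cavin3*, a caveolar protein that binds PKC delta, was at 3 reads or fewer in every melan-a and 4C11+ library and at least 6.02 log2 units higher in 4C and 5.60 in 4C11− than in melan-a. *Cavin2*, which binds PKC alpha, moved the opposite way (-5.54, standard error 0.89, limma adjusted p = 0.000568). *Akap12*, a scaffold for PKC and PKA, was higher by 2.13 (standard error 0.32, adjusted p = 0.00032), *Pard6g* by 1.01 (adjusted p = 0.0402), and *Pard6a*, a partner of atypical PKC like *Pard6g*, was lower (-1.17, adjusted p = 0.0117). *Sqstm1*, another partner of atypical PKC, differed by -0.35 (adjusted p = 0.303). Among 9 genes of PKC maturation and dephosphorylation, *Phlpp1*, a phosphatase of PKC, was the 1 called, lower (-0.86, adjusted p = 0.0122). Of the 3 PKC-related PKN kinases, *Pkn3* was the 1 called, higher by 1.11 (adjusted p = 0.0403).

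Substrates and response genes did not follow a single direction. Of 15 PKC and PKD substrates, 4 were higher and 3 lower in the mesenchymal-like lines, and in 4C11+ against 4C 3 were higher and 7 lower. Of all genes, 14.3% were higher and 15.3% lower in the former comparison and 17.1% higher and 14.6% lower in the latter. *Marcks*, the classical PKC substrate, was not called (-0.43, limma adjusted p = 0.211), while *Marcksl1* was at 3 reads or fewer in both melan-a libraries and at least 7.64 log2 units higher in 4C11+. *Hdac7*, a PKD substrate, was higher in the mesenchymal-like lines by 1.86 (standard error 0.31, adjusted p = 0.000688). Of the phosphatase inhibitors phosphorylated by PKC, *Ppp1r14c* was at 3 reads or fewer in 4C and at least 5.50 log2 units lower there than in melan-a. *Ppp1r14a* was at 3 reads or fewer in melan-a and 4C11+ and at least 1.46 log2 units higher in 4C11− than in melan-a. *Add3*, a cytoskeletal substrate, was lower in the derived lines than in melan-a (-1.05, standard error 0.25, adjusted p = 0.0178). By line it was called only in 4C11+ (-1.61, limma adjusted p = 0.00385), not in 4C (-0.87, adjusted p = 0.0701) or 4C11− (-0.66, adjusted p = 0.181).

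Of the 30 genes listed as induced by phorbol esters 24 had a row. In the derived lines, which had no PMA, 4 were higher and 2 lower than in melan-a, with *Plaur* (2.82, standard error 0.34, limma adjusted p = 0.000174) and *Junb* (1.76, standard error 0.47, adjusted p = 0.0311) higher and *Spry2* lower (-1.93, standard error 0.41, adjusted p = 0.00955). Line by line, these genes were called in 4C and 4C11−. In 4C11+ only *Plaur* was (2.19, limma adjusted p = 0.00353), not *Junb* (0.84, adjusted p = 0.335) or *Spry2* (-0.95, adjusted p = 0.21). *Ptgs2* was at 3 reads or fewer in melan-a and 4C11+ and at least 4.03 log2 units higher in 4C than in melan-a. In the mesenchymal-like lines 9 were higher and 6 lower, with 29.7% of all genes called there and 12.3% in the derived lines. Among those higher were *Dusp1* (2.52, standard error 0.39, adjusted p = 0.000473) and *Fosl1* (2.27, standard error 0.55, adjusted p = 0.00816). *Dusp5* and *Egr2* were at 3 reads or fewer in 4C11+ and at least 4.73 and 3.19 log2 units higher in 4C. The median difference over the 24 genes was 0.13 in the derived lines and 0.49 in the mesenchymal-like lines, beside -0.06 and -0.09 for all genes.

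**Figure D4:**
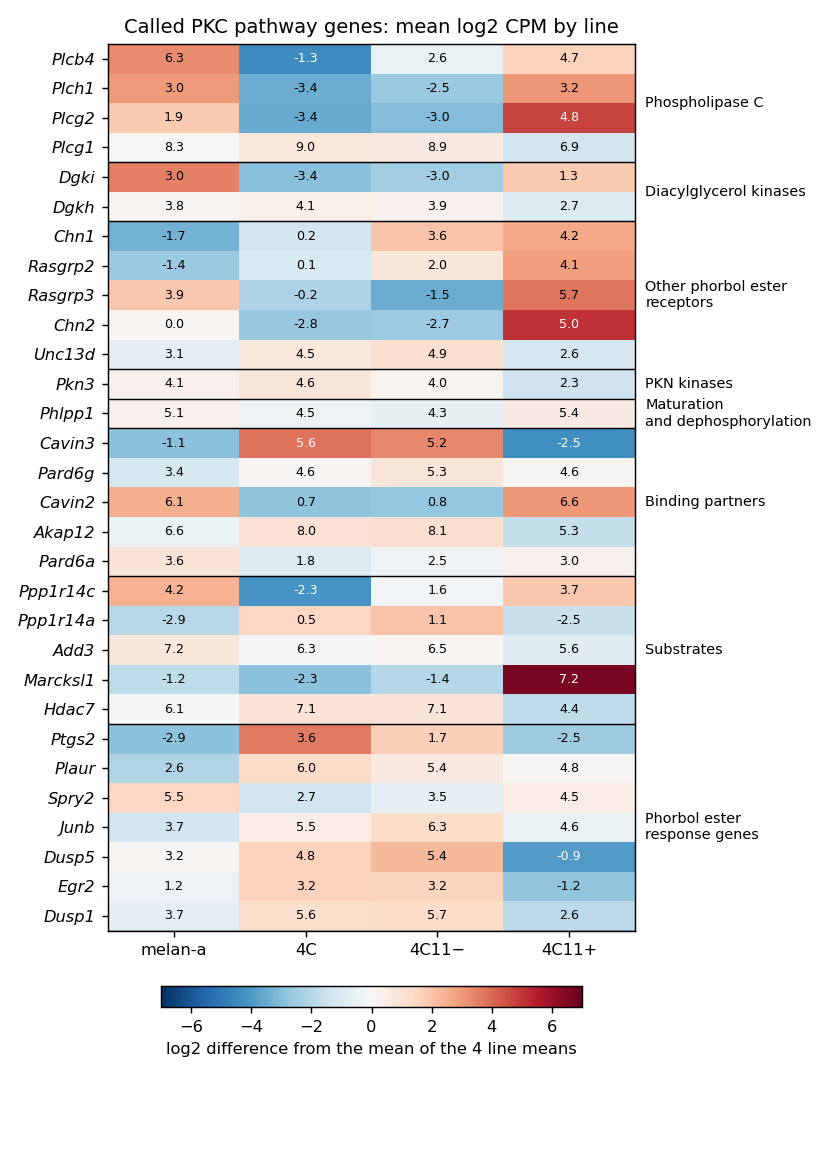
Mean log2 CPM by line (numbers in the cells) of the called pathway genes with the largest differences, with color showing the log2 difference from the mean of the 4 line means. *Plch1*, *Plcg2*, *Dgki*, *Rasgrp3* and *Chn2* are lower in 4C and 4C11− than in 4C11+, and *Cavin3*, *Ptgs2* and *Dusp5* are higher. Values below the level of 3 reads are those of near-absent genes.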

How the data were processed

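RNA was sequenced from cultures of melan-a, 4C, 4C11− and 4C11+. The authors trimmed reads with Trimmomatic, aligned them with STAR to GRCm38, assigned them to genes with Rsubread, filtered genes of low count and applied voom in limma. The deposited values are log2 CPM, 1 library per table. All libraries share 1 highest value, as after quantile normalization, which no source used here names. Whether counting used strand is not given in the sources used here.

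Of 14272 genes, 24 had no symbol. The deposited log2 values were fitted with limma 3.58.1 in R 4.3.3 (line means over 11 libraries, eBayes with a variance trend, p-values adjusted over all genes by Benjamini-Hochberg, call at an adjusted p under 0.05). The test was checked on simulated data. Reads were estimated by ranking the distinct lowest values of each library, depth from the value at 40 reads, and genes at 3 reads or fewer throughout a line were treated as absent, with bounds set at 3 reads in each library. The intervals of read ratios and the bounds cover counting error only. The ratios also take the depths at 40 reads as given, which would differ at another step. Levels per length used exons of GENCODE M21. Alternatives were a further quantile normalization, median centring, a minimum mean log2 of 1, a pseudocount of 1 CPM, no or a robust variance trend, a replicate block and each library left out.

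All 8 members were named, and from each pathway list up to 4 called genes with the largest difference in each of 2 comparisons (derived lines against melan-a, mesenchymal-like against epithelial lines). *Marcks*, *Akap12*, *Fosl1*, *Rasgrp3*, *Dgka* and *Sqstm1* were named whatever their values, as were the 2 genes most correlated with each member. Members and lists were chosen with earlier results of these data known. Melan-a replicate 1 was not analysed here.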

Additional observations from a re-analysis of the deposited data

How the results depend on the processing

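Of the 21 called differences of members, 9 were called in all 18 alternative fits and 12 were lost in at least 1, and 0 changed sign. Without the variance trend 1 member was called in 4C against melan-a and 0 in 4C11− against melan-a. A pseudocount of 1 CPM gave 2 called members in 4C11− against melan-a and 2 in the derived lines, and the filter on low means gave 2 in 4C11+ against melan-a. With 1 library left out, the called members ranged from 0 to 3 in 4C against melan-a, 0 to 2 in 4C11− against melan-a, 1 to 4 in 4C11+ against melan-a, 2 to 5 in 4C11+ against 4C11−, 0 to 2 in the derived lines and 3 to 6 in the mesenchymal-like lines. The cause was not tested. Over all genes, the 238 called between 4C11− and 4C became 125 with the filter on low means, which tests fewer genes, and 93 to 320 with 1 library left out. The 2270 called in 4C11+ against melan-a became 1089 to 2864.

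Differences that were not called changed sign when 1 library was left out. Against melan-a, the ranges in 4C were -0.30 to 0.49 for *Prkcd*, -0.076 to 0.42 for *Prkci* and -0.070 to 0.30 for *Prkd3*. In 4C11− they were -0.37 to 0.65 for *Prkca*, -0.26 to 0.53 for *Prkcd* and -0.40 to 0.39 for *Prkd3*. In 4C11+ they were -1.45 to 0.065 for *Prkch* and -0.71 to 0.39 for *Prkd2*. In the derived lines they were -0.54 to 0.47 for *Prkca* and -0.062 to 1.04 for *Prkd2*. Between 4C11− and 4C they were -0.16 to 0.17 for *Prkcd*, -0.043 to 0.41 for *Prkce*, -0.31 to 0.46 for *Prkch* and -0.52 to 0.27 for *Prkd3*.

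Deviations from the line means correlated at -0.226 to 0.388 between libraries with the same replicate number (median 0.147, 8 of 15 pairs over 0.1) and at a median of -0.0946 between those with different numbers (11 of 30 over 0.1). Same-numbered libraries thus tended to deviate together, but not in every pair, and no label says that a number marks a shared batch, so they were not treated as paired. Of the 11 libraries, 6 correlated best with their own number. With the replicate number as a block, 1 member was called in 4C against melan-a and 7 in the mesenchymal-like against the epithelial lines. The uncalled differences that changed sign under the block were those of *Prkcd* in 4C (-0.041) and 4C11− (-0.00107) and of *Prkd3* in 4C11− (0.10) against melan-a, and of *Prkca* in the derived lines (0.094).

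The 2 melan-a libraries and the few reads of *Prkch* and *Prkcz* limit what these comparisons can show.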
